A study of Homo sapiens with 12 samples.

Results

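The growth arrest genes described here are 10 genes whose products, in cells under stress, slow or stop the cell cycle, lower mRNA stability or help protein synthesis resume. They were taken by symbol from the 44147 genes of the deposited files, and all 10 were found: CDKN1A, CDKN1B, GADD45A, GADD45B, GADD45G, PPP1R15A, BTG1, BTG2, BTG3 and TOB1. RNA was sequenced from CCRF-CEM, an established human T lymphoblast leukemia line, and from an SLFN11-knockout derivative of it. The SLFN11 protein binds stalled replication forks and blocks their restart, and prexasertib inhibits CHK1, a kinase that protects such forks. The 4 groups were knockout cells with 100 nM prexasertib for 6 h, knockout cells with the solvent DMSO, SLFN11-positive parent cells with 100 nM prexasertib for 6 h, and parent cells with DMSO, with 3 libraries each and 12 in all. No DMSO time is given in the labels, which also do not say whether the knockout line is a single clone or whether a group's 3 libraries are separate cultures. The p-values therefore measure only the spread between these libraries, which may be technical, and loss of SLFN11 and other differences between the lines cannot be told apart.

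CDKN1A encodes p21 and CDKN1B encodes p27, proteins that bind cyclin-CDK complexes and hold cells before S phase. The GADD45 proteins bind p21, PCNA and the kinase MAP3K4 and couple DNA damage and other stress to p38 and JNK signaling. PPP1R15A, also called GADD34, was cloned with them as a DNA damage transcript but is unrelated in fold, and it brings protein phosphatase 1 to the translation factor eIF2alpha so that translation can resume after stress. BTG1, BTG2, BTG3 and TOB1 share an antiproliferative domain through which they contact the CCR4-NOT deadenylase, which shortens poly(A) tails. In mouse T cells Btg1 and Btg2 are known to maintain quiescence.

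Records and files conflict over the treatment. In 12 of 12 records the title carries a library name that states the same treatment as the record's label. The file of that name is attached to a record of the opposite treatment in the same line. Each attached file is thus named for the treatment opposite to its record's label. Files are assigned here by attachment, so each group is named by what its records are labelled, prexasertib or DMSO. Should the names of the files be right instead, every treatment difference below takes the opposite sign. So does every difference between the lines in that effect. The knockout-to-parent comparisons under labelled prexasertib and labelled DMSO then trade places. Under that reading 9 of the 9 genes that could be tested would be higher with prexasertib in parent cells. In bulk RNA, fewer cells of a type and less RNA per cell cannot be told apart.

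The libraries held 47887791 to 77548202 exonic reads and 16764538 to 26736753 intronic reads. Replicate 1 of parent cells labelled prexasertib stood apart from its group, with 30.27% of its reads in introns against 23.93 to 26.37% in the other libraries. Counts that rest on that group are given with it and without it. The shares of all genes given beside counts are from the fits of all 12 libraries. SLFN11 exonic RNA was 85.0, 90.7 and 89.4 CPM (reads scaled to a common library size and composition) in knockout cells labelled prexasertib and 65.9, 66.6 and 69.1 CPM in those labelled DMSO, against 117, 119 and 117 CPM in parent cells labelled prexasertib and 100.4, 91.2 and 95.2 CPM in those labelled DMSO. The knockout libraries thus kept SLFN11 reads, at 1.33-fold less than parent libraries under labelled prexasertib and 1.42-fold less under labelled DMSO, and these reads do not check whether the protein was lost. The 9 T-lineage markers were read in each library, at 6.09 to 531 TPM (length-scaled abundance as the authors computed it). Their summed level was 943 to 969 TPM in knockout cells labelled prexasertib, 915 to 947 TPM in knockout cells labelled DMSO, 774 to 834 TPM in parent cells labelled prexasertib and 659 to 678 TPM in parent cells labelled DMSO. Of 6 B-lineage markers, CD79A had 11.7 to 28.5 TPM and CD79B 4.23 to 7.60 TPM, while MS4A1 was at 0. EPCAM had 0.517 to 5.57 TPM, and the other epithelial and fibroblast, myeloid and erythroid markers listed reached at most 0.578 TPM. The summed B-lineage level was 32.1 to 33.9, 31.7 to 35.1, 20.9 to 23.2 and 16.1 to 17.1 TPM in the 4 groups in the same order, and that of the 5 epithelial and fibroblast markers 5.01 to 5.64, 4.75 to 5.19, 0.589 to 0.783 and 0.635 to 0.819 TPM. The TPM scale itself was shifted between groups, by the median of 16223 genes in log2(TPM + 1). With labelled prexasertib this shift was 0.017 in knockout and 0.145 in parent cells. In knockout against parent cells it was 0.125 under labelled prexasertib and 0.232 under labelled DMSO. The part of these markers in the results was not tested.

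The promoters of the 3 genes with the largest treatment differences are shown, since the results below turn on them, from 250 bases before to 50 bases after the RefSeq start, in GRCh38.p14. Capitals mark the core of the cAMP response element (CRE, TGACG), the TATA motif (TATAA), the CCAAT box (CCAAT) and the GC box (GGGCGG), each on either strand.
CDKN1A (chr6:36678464-36678763, + strand): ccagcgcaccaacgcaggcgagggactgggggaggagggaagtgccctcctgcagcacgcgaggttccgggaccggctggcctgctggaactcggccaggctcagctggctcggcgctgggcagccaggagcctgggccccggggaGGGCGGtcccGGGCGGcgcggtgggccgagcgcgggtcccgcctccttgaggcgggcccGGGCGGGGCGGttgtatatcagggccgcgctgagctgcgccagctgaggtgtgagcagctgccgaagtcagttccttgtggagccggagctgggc
BTG2 (chr1:203305269-203305568, + strand): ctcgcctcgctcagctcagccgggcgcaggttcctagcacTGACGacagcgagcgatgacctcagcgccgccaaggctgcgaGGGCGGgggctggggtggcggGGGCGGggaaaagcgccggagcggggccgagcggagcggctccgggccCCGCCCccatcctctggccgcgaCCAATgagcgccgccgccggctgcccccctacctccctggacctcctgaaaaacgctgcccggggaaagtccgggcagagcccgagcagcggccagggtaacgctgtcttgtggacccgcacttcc
PPP1R15A (chr19:48872171-48872470, + strand): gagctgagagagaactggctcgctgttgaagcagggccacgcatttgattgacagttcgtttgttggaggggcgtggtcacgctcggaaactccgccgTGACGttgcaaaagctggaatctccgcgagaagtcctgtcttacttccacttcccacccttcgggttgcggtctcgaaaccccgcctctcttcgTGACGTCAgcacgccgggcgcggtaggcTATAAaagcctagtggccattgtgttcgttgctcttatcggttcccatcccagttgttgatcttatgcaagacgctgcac
These windows differ in makeup. That of CDKN1A is 74.3% G and C and that of BTG2 73.3%, against a median of 58.7% over all promoters in the table, while that of PPP1R15A has 56%. The CDKN1A window holds 4 GC boxes, at -104, -94, -45 and -40 counted from the start, the last pair sharing a base, and none of the other motifs in capitals. BTG2 has a CRE core at -210, a CCAAT box at -76 and GC boxes on both strands. PPP1R15A has CRE cores at -152 and -58, the second followed by TCA to make the full palindrome (so that it is also read on the other strand, overlapping itself), and a TATA motif at -30. Of the 9 genes matched in the table, 5 held the CRE core (BTG1, BTG2, CDKN1B, PPP1R15A and TOB1), as did 24.6% of all 35116 promoters of that length. PPP1R15A was the only one with the full CRE, which 1.85% of all promoters hold. TATAA was in 4 of 9 (BTG1, GADD45B, GADD45G and PPP1R15A) and in 20.4% of all, CCAAT in 6 of 9 and 34.6% of all, and the GC box in 6 of 9 and 45% of all. The AP-1 motif (TGANTCA) was in 0 of 9 and 7.71% of all, and the serum response CArG box in 0 of 9 and 1.29% of all. An NF-kappaB motif was found in GADD45B alone among them, and in 11.3% of all. These counts of members are per gene, while the shares of all promoters are per window. TOB1 has 2 of the 10 windows of these 9 genes and was counted where either held the motif. A match is a stretch of letters only, and elements outside the window are not covered.

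On the TPM scale, which allows levels of different genes to be compared, CDKN1B was the highest of the 10 genes in each group, at 36.4, 35.0, 30.6 and 46.7 TPM in knockout labelled prexasertib, knockout labelled DMSO, parent labelled prexasertib and parent labelled DMSO cells. GADD45G was the lowest in each group, at 0.0344, 0.121, 0.0666 and 0.111 TPM. PPP1R15A held rank 5 in knockout cells labelled prexasertib and rank 2 in the other 3 groups. In parent cells labelled prexasertib its range overlapped that of BTG1, and that of BTG1 overlapped that of GADD45B. BTG2 ranked 4 in parent cells labelled DMSO, at 15.6 TPM, where its range overlapped that of BTG3 and that of BTG3 overlapped that of GADD45B. It ranked 7 in the other groups, at 3.46 to 4.58 TPM. CDKN1A was among the low members, ranking 8, 9, 9 and 7 in the 4 groups as ordered above. Its 3.18 to 3.24 TPM in knockout cells labelled prexasertib overlapped the range of GADD45A, and its 5.84 to 6.29 TPM in parent cells labelled DMSO overlapped that of TOB1.

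**Figure D1:**
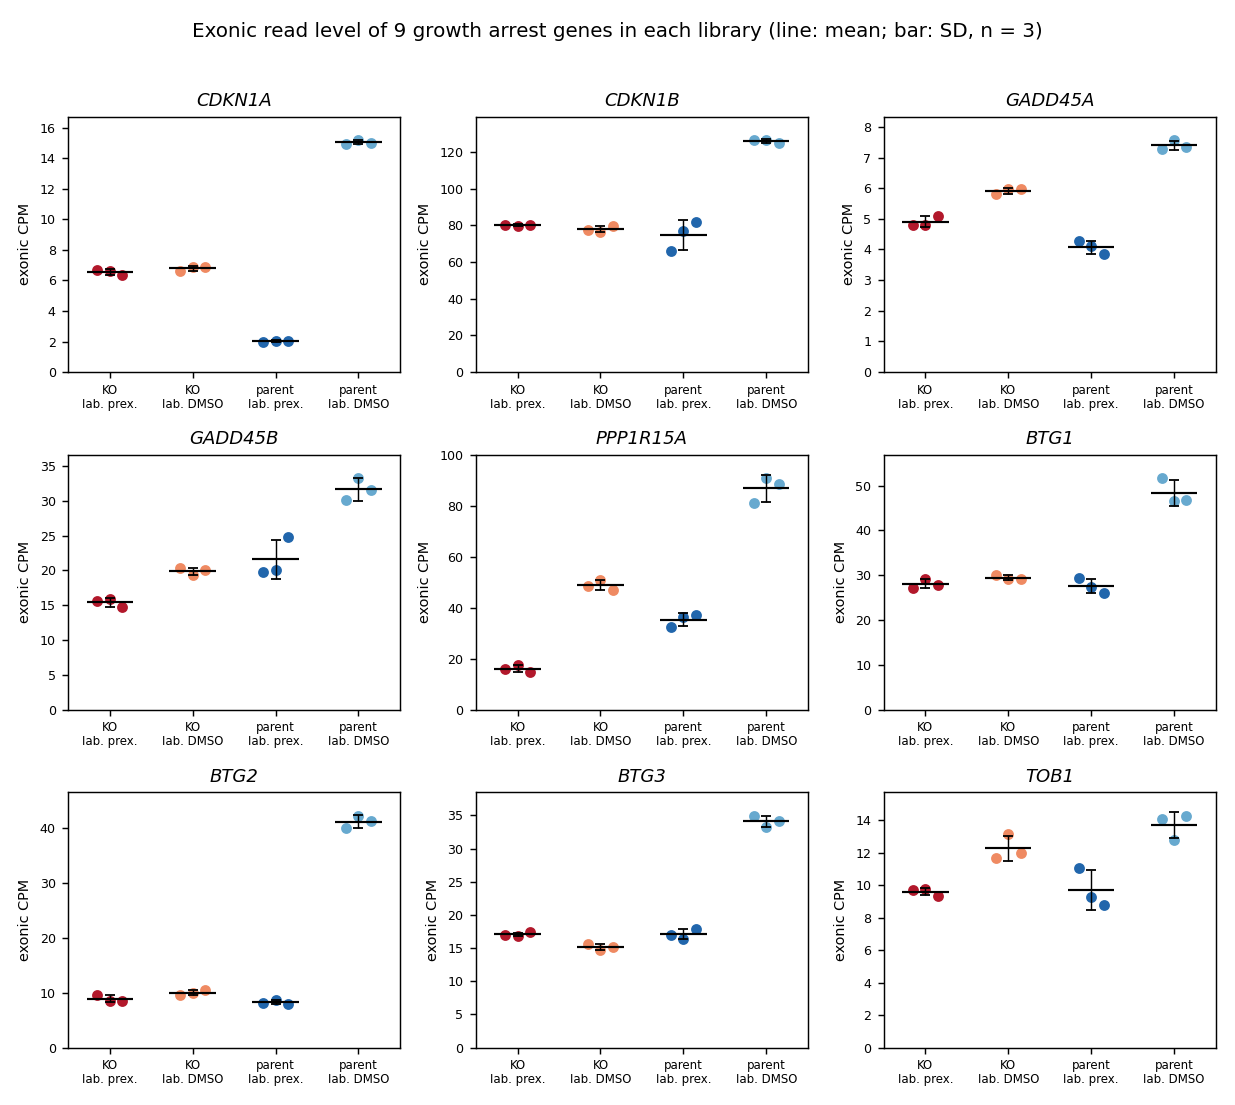
Exonic read level in CPM (linear axis from 0) of the 9 genes that could be tested, with a point per library, a line at the mean and a bar of 1 SD (n = 3), from left to right in knockout cells labelled prexasertib, knockout cells labelled DMSO, parent cells labelled prexasertib and parent cells labelled DMSO. Parent cells labelled DMSO are highest in mean for each gene, from 7.41 CPM for GADD45A to 125.9 CPM for CDKN1B, and CDKN1A is lowest in parent cells labelled prexasertib at 2.02 CPM.

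Both CDK inhibitor genes fell with labelled prexasertib in parent cells and did not pass the test in knockout cells. CDKN1A, on chromosome 6 at 36644305 to 36655116 in hg19, had 6.70, 6.59 and 6.36 exonic CPM in knockout cells labelled prexasertib and 6.63, 6.86 and 6.89 CPM in those labelled DMSO. In parent cells it had 1.95, 2.05 and 2.06 CPM when labelled prexasertib and 14.96, 15.19 and 14.97 CPM when labelled DMSO. The parent groups were far apart and the knockout groups overlapped, lying between the parent extremes. In parent cells CDKN1A was 7.45-fold lower with labelled prexasertib, a log2 fold change of -2.90 (SE 0.10, edgeR adjusted p = 3.05e-18), and in knockout cells the change was -0.05 (SE 0.09, edgeR adjusted p = 0.79). The difference between these changes, knockout less parent, was 2.85 (SE 0.13, edgeR adjusted p = 2.31e-14). The order of the lines turned over with treatment: CDKN1A was 3.25-fold higher in knockout than parent cells under labelled prexasertib (log2 1.70, SE 0.10) and 2.22-fold lower under labelled DMSO (log2 -1.15, SE 0.08).

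CDKN1B, on chromosome 12 at 12867992 to 12875305, had 80.5, 79.6 and 80.2 exonic CPM in knockout cells labelled prexasertib and 77.4, 76.6 and 79.8 CPM in those labelled DMSO, against 65.8, 77.1 and 81.7 CPM in parent cells labelled prexasertib and 126.55, 126.4 and 124.8 CPM in parent cells labelled DMSO. Only the last group stood apart, and within parent cells labelled prexasertib the lowest value was that of replicate 1. The log2 change with labelled prexasertib was 0.04 (SE 0.06) in knockout cells and -0.75 (SE 0.06) in parent cells, and it differed between the lines by 0.79 (SE 0.08, edgeR adjusted p = 1.34e-07). Between the lines CDKN1B was lower in knockout cells under labelled DMSO (log2 -0.69, SE 0.06) and did not pass the test under labelled prexasertib (log2 0.10, SE 0.06).

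Of the GADD45 genes, GADD45A fell in parent cells and did not pass the test in knockout cells. GADD45A, on chromosome 1 at 68150744 to 68154021, had 4.79, 4.8 and 5.11 exonic CPM in knockout cells labelled prexasertib and 5.81, 5.96 and 5.96 CPM in those labelled DMSO, against 4.26, 4.11 and 3.84 CPM in parent cells labelled prexasertib and 7.29, 7.57 and 7.35 CPM in parent cells labelled DMSO. Neither pair of treatment groups overlapped. The change was -0.86 (log2, SE 0.10, edgeR adjusted p = 1.24e-07) in parent cells and -0.27 (SE 0.10, edgeR adjusted p = 0.0769) in knockout cells, which did not pass the test, and the lines differed by 0.59 (SE 0.14, edgeR adjusted p = 0.00393). Under labelled DMSO it was lower in knockout than parent cells by exonic reads (log2 -0.33, SE 0.10, edgeR adjusted p = 0.00821), and on the authors' TPM scale this call was lost (log2(TPM + 1) difference -0.04, limma adjusted p = 0.68).

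GADD45B, on chromosome 19 at 2476120 to 2478257, fell in both lines. It had 15.7, 15.9 and 14.7 exonic CPM in knockout cells labelled prexasertib and 20.3, 19.3 and 20.01 CPM in those labelled DMSO, against 19.9, 20.1 and 24.9 CPM in parent cells labelled prexasertib and 30.1, 33.3 and 31.5 CPM in parent cells labelled DMSO. Within each line the treatment groups did not overlap. The log2 change was -0.37 (SE 0.08, edgeR adjusted p = 0.00143) in knockout cells and -0.55 (SE 0.07, edgeR adjusted p = 1.10e-06) in parent cells, and the lines did not differ in it beyond the test (0.19, SE 0.11, edgeR adjusted p = 0.256), although without replicate 3 of parent cells labelled prexasertib they did (0.30, edgeR adjusted p = 0.032). Knockout cells had less GADD45B than parent cells under labelled prexasertib (log2 -0.48, SE 0.08) and under labelled DMSO (log2 -0.67, SE 0.07).

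GADD45G, on chromosome 9 at 92219928 to 92221470, was close to unread. Its exonic reads numbered 2, 2 and 2 in knockout cells labelled prexasertib and 6, 6 and 12 in those labelled DMSO, against 6, 0 and 6 in parent cells labelled prexasertib and 4, 12 and 10 in parent cells labelled DMSO. It failed the filter on low counts and was not tested. The library with 0 reads allows up to 0.0487 CPM, a limit of 3 reads that covers counting error only. This limit takes reads as counted singly and would be higher if both reads of a pair were counted.

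PPP1R15A, on chromosome 19 at 49375649 to 49379314, was the one member with a large change in knockout cells. It had 16.15, 17.5 and 14.7 exonic CPM in knockout cells labelled prexasertib and 48.5, 51.1 and 47.2 CPM in those labelled DMSO, against 32.6, 36.4 and 37.2 CPM in parent cells labelled prexasertib and 81.1, 91.0 and 88.5 CPM in parent cells labelled DMSO. The 4 groups did not overlap at any point. It fell 3.04-fold in knockout cells (log2 -1.60, SE 0.07, edgeR adjusted p = 3.89e-15) and 2.46-fold in parent cells (log2 -1.30, SE 0.065, edgeR adjusted p = 1.43e-14). The lines differed in this change by -0.31 (SE 0.09, edgeR adjusted p = 0.0223), which lost the threshold without any of 7 single libraries, at -0.31 to -0.22, and with all reads of the gene (-0.30, edgeR adjusted p = 0.095). It was lower in knockout than parent cells under labelled prexasertib (log2 -1.14, SE 0.07) and under labelled DMSO (log2 -0.83, SE 0.06).

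Of the BTG and TOB1 genes, BTG2 showed the largest difference. BTG2, on chromosome 1 at 203274619 to 203278730, had 9.66, 8.55 and 8.59 exonic CPM in knockout cells labelled prexasertib and 9.53, 10.0 and 10.4 CPM in those labelled DMSO, against 8.14, 8.76 and 7.99 CPM in parent cells labelled prexasertib and 40.1, 42.3 and 41.3 CPM in parent cells labelled DMSO. Parent cells labelled DMSO stood alone, and the other 3 groups lay between 7.99 and 10.4 CPM. It fell 4.96-fold in parent cells (log2 -2.31, SE 0.07, edgeR adjusted p = 9.96e-19), its change in knockout cells was -0.16 (SE 0.07, edgeR adjusted p = 0.172), and the lines differed by 2.15 (SE 0.10, edgeR adjusted p = 4.91e-14).

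BTG3, on chromosome 21 at 18965971 to 18985265, had 16.99, 16.8 and 17.4 exonic CPM in knockout cells labelled prexasertib and 14.7 to 15.6 CPM in the 3 libraries of those labelled DMSO, against 17.03, 16.3 and 17.9 CPM in parent cells labelled prexasertib and 34.98, 33.3 and 34.1 CPM in parent cells labelled DMSO. The first 3 of these groups lay between 14.7 and 17.9 CPM, below each library of parent cells labelled DMSO. BTG1, on chromosome 12 at 92536286 to 92539673, had 27.2, 29.2 and 27.9 CPM in knockout cells labelled prexasertib and 30.1, 29.1 and 29.2 CPM in those labelled DMSO, against 29.4, 27.4 and 26.1 CPM in parent cells labelled prexasertib and 51.7, 46.5 and 46.9 CPM in parent cells labelled DMSO. With labelled prexasertib in parent cells, BTG3 fell 2.0-fold (log2 -1.0, SE 0.06) and BTG1 1.75-fold (log2 -0.81, SE 0.06). In knockout cells the log2 change was 0.17 (SE 0.06, edgeR adjusted p = 0.0775) for BTG3 and -0.07 (SE 0.06, edgeR adjusted p = 0.537) for BTG1, neither past the threshold. The lines differed in these changes by 1.17 (SE 0.09, edgeR adjusted p = 2.89e-10) for BTG3 and 0.74 (SE 0.08, edgeR adjusted p = 5.42e-07) for BTG1. Of the 2622 exonic bases of BTG1, 1892 overlap no other gene, and reads counted there gave 0.74 as well.

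TOB1, on chromosome 17 at 48939584 to 48945339, encodes a relative of the BTG proteins and fell in both lines. It had 9.71, 9.75 and 9.36 exonic CPM in knockout cells labelled prexasertib and 11.7, 13.17 and 11.99 CPM in those labelled DMSO, against 11.1, 9.27 and 8.80 CPM in parent cells labelled prexasertib and 14.1, 12.8 and 14.3 CPM in parent cells labelled DMSO. The treatment groups did not overlap in either line. Its log2 change was -0.35 (SE 0.09, edgeR adjusted p = 0.00782) in knockout cells, which was lost without replicate 2 of knockout cells labelled DMSO (-0.30, edgeR adjusted p = 0.074) and on the TPM scale (-0.28, limma adjusted p = 0.10). In parent cells the change was -0.49 (SE 0.09, edgeR adjusted p = 6.71e-05), and the lines did not differ in it beyond the test (0.14, SE 0.13, edgeR adjusted p = 0.505). That difference passed with all reads of the gene (0.38, edgeR adjusted p = 0.023). Without replicate 1 of parent cells labelled prexasertib it was 0.28 (edgeR adjusted p = 0.093), and the parent change was -0.63.

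Counted together, the tested genes fell in parent cells throughout. With labelled prexasertib in parent cells 9 of 9 fell, where 18.2% of all 23045 genes tested were called lower, and for 9 of 9 the groups did not overlap, where 21.8% of all genes were lower without overlap. In knockout cells 3 of 9 fell (PPP1R15A, GADD45B and TOB1) and 0 rose, where 6.83% of all genes were called lower and 6.11% higher. Of the 9, only BTG3 was higher at an unadjusted p under 0.05 in edgeR's test, and DESeq2 also called 0 higher. Without replicate 1 of parent cells labelled prexasertib, the library that stood apart, 9 of 9 fell in parent cells, and in knockout cells 3 fell and 1, BTG3, rose. The median log2 change was -0.86 over the 9 genes and 0.04 over all genes in parent cells, and -0.16 over the 9 genes and -0.00 over all genes in knockout cells. The change differed between the lines for 7 of 9, positive for 6 and negative for PPP1R15A (6 and 1 without that library), where 9.53% and 7.32% of all genes were called positive and negative, and its median was 0.74 over the 9 genes and -0.03 over all genes. These counts describe the 9 genes and are no independent evidence of a direction. The T-lineage, B-lineage and epithelial marker sums given above did not overlap between the lines, and in parent cells the T-lineage and B-lineage sums did not overlap between treatments either. These sums are in TPM, a scale on which the median of all genes also shifted between these groups. The part of the markers in these counts was not tested.

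**Figure D2:**
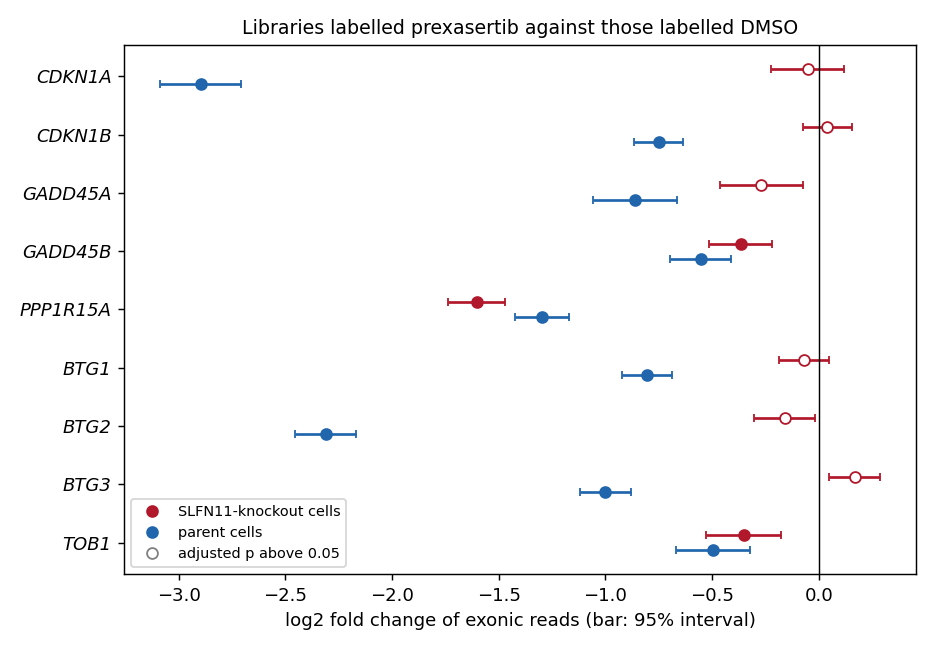
Log2 fold change of exonic reads, labelled prexasertib over labelled DMSO, for 9 genes in knockout cells (red) and parent cells (blue), with bars for normal 95% intervals and open points for an edgeR adjusted p above 0.05. Parent points lie between -2.90 (CDKN1A) and -0.49 (TOB1), and the knockout points lie within 0.37 of 0 except PPP1R15A at -1.60.

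Set against each other under labelled DMSO, knockout cells had less RNA than parent cells of 8 of 9 genes and more of 0, where 20.4% and 19.6% of all genes were called lower and higher. The log2 fold change was -2.05 (SE 0.07) for BTG2, -1.17 (SE 0.06) for BTG3 and -1.15 (SE 0.08) for CDKN1A. The median was -0.72 over the 9 genes and -0.01 over all genes. These comparisons share libraries with those of treatment. TOB1 did not pass the test (log2 -0.16, SE 0.09, edgeR adjusted p = 0.152). Under labelled prexasertib 1 of 9 was higher in knockout cells (CDKN1A) and 2 lower (PPP1R15A and GADD45B), where 14.5% and 13.5% of all genes were called higher and lower. The median there was 0.02 over the 9 genes and -0.02 over all genes. BTG1, BTG2 and BTG3 did not pass the test there, at log2 0.02 (SE 0.06), 0.11 (SE 0.07) and 0.00 (SE 0.06). Their normal 95% intervals were -0.10 to 0.14 for BTG1, -0.04 to 0.25 for BTG2 and -0.12 to 0.12 for BTG3. GADD45A was at 0.27 (SE 0.10, edgeR adjusted p = 0.055), and without replicate 1 of parent cells labelled prexasertib it passed at 0.30 (edgeR adjusted p = 0.049), as TOB1 did under labelled DMSO, for 9 lower of 9. On the authors' TPM scale 4 genes were higher under labelled prexasertib, since GADD45A (0.30), CDKN1B (0.25) and BTG2 (0.20) also passed. On that scale the median of all genes was itself shifted toward knockout cells, by 0.125 under labelled prexasertib and 0.232 under labelled DMSO, in log2(TPM + 1).

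**Figure D3:**
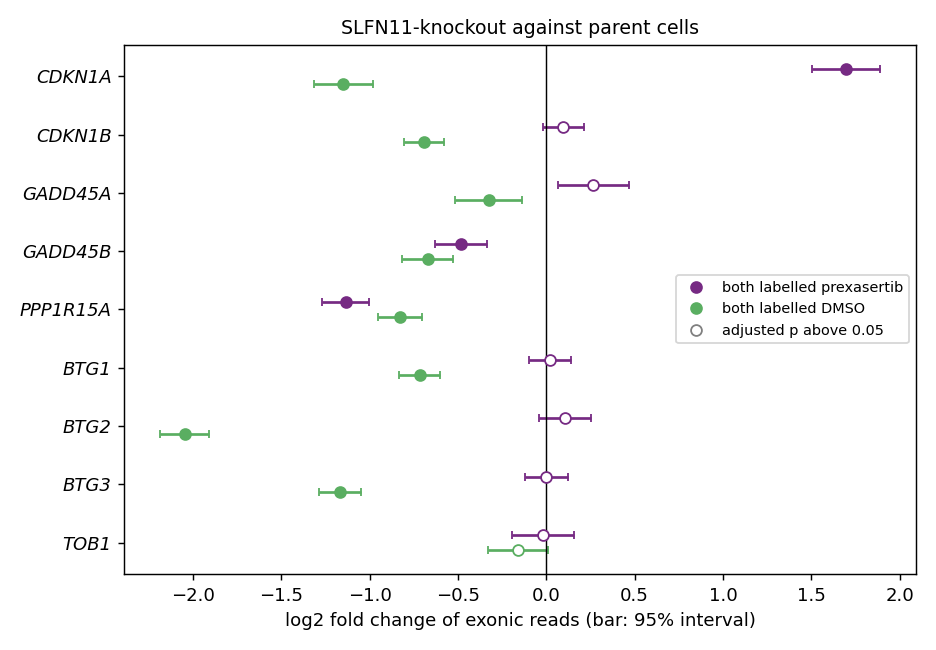
Log2 fold change of exonic reads, knockout over parent cells, for 9 genes under labelled prexasertib (purple) and under labelled DMSO (green), with bars for normal 95% intervals and open points for an edgeR adjusted p above 0.05. CDKN1A lies at 1.70 under labelled prexasertib and at -1.15 under labelled DMSO, while GADD45B and PPP1R15A are below 0 under both labels.

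Intronic reads, which come mostly from RNA not yet spliced, gave a second count in the same libraries. They could be tested for 8 of the 10 genes, since GADD45B is given no intronic bases in the files and GADD45G had too few reads. In parent cells 7 of 8 fell with labelled prexasertib (7 also without replicate 1 of that group), where 15.6% of 19852 genes were called lower. BTG2 fell most (log2 -1.82, SE 0.23), and GADD45A, with 23 to 46 intronic reads per parent library, did not pass the test (-0.54, SE 0.31, edgeR adjusted p = 0.191). In knockout cells 3 of 8 fell, where 6.15% of all genes were called lower: PPP1R15A (-2.28, SE 0.18), CDKN1A (-0.92, SE 0.19) and BTG2 (-0.96, SE 0.26). The BTG2 call (edgeR adjusted p = 0.016) was lost without any of 4 single knockout libraries, with edgeR adjusted p of 0.056 to 0.10.

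Between the lines, 6 of 8 genes had fewer intronic reads in knockout than parent cells under labelled DMSO, where 16.0% of all genes were called lower. BTG2 was lowest (log2 -1.47, SE 0.22), followed by BTG3 (-0.65, SE 0.08) and BTG1 (-0.61, SE 0.21). Of the 12 fits that leave out a single library, the call was lost in 9 for TOB1, 5 for PPP1R15A and 4 for BTG1. Under labelled prexasertib CDKN1A (0.68, SE 0.21) and BTG3 (0.26, SE 0.08) were higher in knockout cells and PPP1R15A (-1.80, SE 0.18) lower, where 9.62% and 9.16% of all genes were called higher and lower. Without replicate 1 of parent cells labelled prexasertib 1 was higher and 1 lower, since CDKN1A was then at 0.54 (edgeR adjusted p = 0.069). The CDKN1A call was also lost without either of 2 knockout libraries (0.65 in both fits), and that of BTG3 without any of 4 single libraries. The change with labelled prexasertib differed between the lines for 4 of 8 genes. It was positive for BTG3 (0.91, SE 0.12), TOB1 (0.84, SE 0.23) and CDKN1B (0.68, SE 0.13) and negative for PPP1R15A (-1.37, SE 0.24), where 5.82% and 4.02% of all genes were called positive and negative, and without replicate 1 of parent cells labelled prexasertib 3 were likewise positive and 1 negative. BTG2 (0.87, SE 0.35, edgeR adjusted p = 0.12) and BTG1 (0.76, SE 0.31, edgeR adjusted p = 0.133) did not pass the test.

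The intronic and exonic reads of CDKN1A did not move alike. Its intronic reads were 4.53, 5.03 and 5.04 CPM in knockout cells labelled prexasertib and 8.66, 7.99 and 11.1 CPM in those labelled DMSO, against 2.49, 3.48 and 3.2 CPM in parent cells labelled prexasertib and 6.45, 8.41 and 10.3 CPM in parent cells labelled DMSO. In knockout cells the intronic level fell (edgeR adjusted p = 0.00194) while the exonic change of -0.05 did not pass the test. In parent cells the intronic level fell by 1.45 on the log2 scale (log2 fold change -1.45, SE 0.20), against -2.90 for exonic reads. The lines did not differ beyond the test in the intronic change (0.53, SE 0.27, edgeR adjusted p = 0.234). Under labelled DMSO the intronic level did not differ beyond the test between the lines (log2 0.15, SE 0.18, edgeR adjusted p = 0.579), although the exonic level was 2.22-fold lower in knockout cells.

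**Figure D4:**
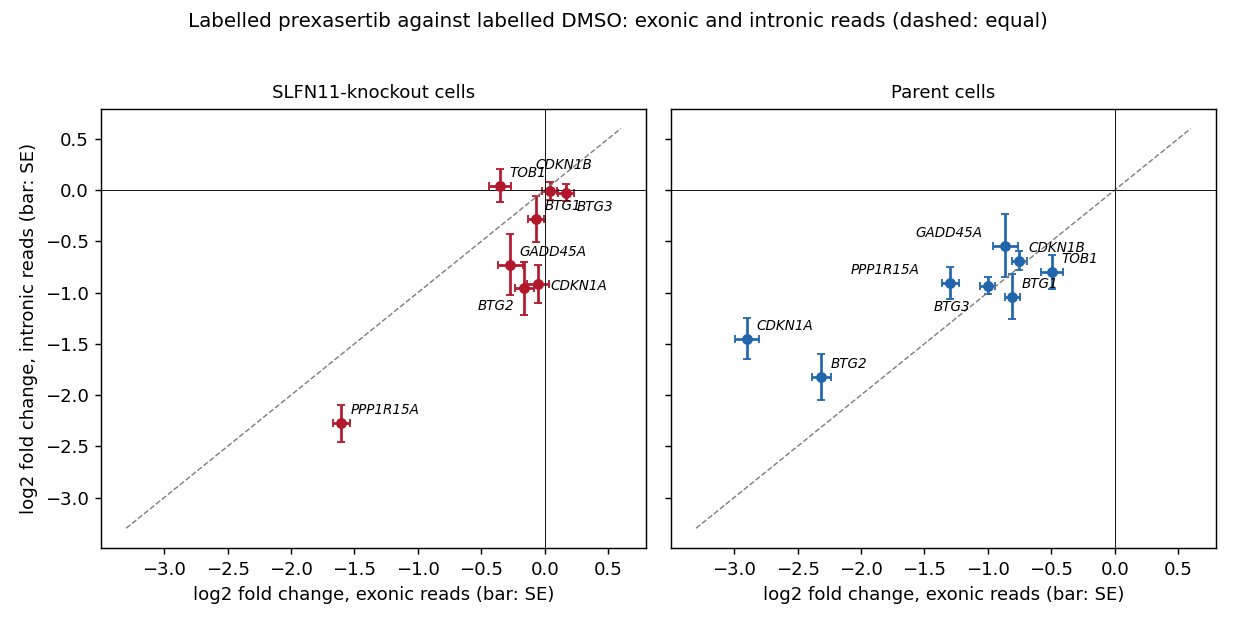
Log2 fold change with labelled prexasertib of intronic reads (vertical axis) against exonic reads (horizontal axis) for 8 genes, in knockout cells (left) and parent cells (right), with bars of 1 SE and a dashed line where the changes are equal. CDKN1A lies below the line in knockout cells (-0.05 exonic, -0.92 intronic) and above it in parent cells (-2.90 exonic, -1.45 intronic).

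The share of CDKN1A reads that were intronic was 19.0, 20.5 and 21.6% in knockout cells labelled prexasertib and 31.4, 29.1 and 35.1% in those labelled DMSO, against 35.2, 37.6 and 35.3% in parent cells labelled prexasertib and 12.9, 14.8 and 17.9% in parent cells labelled DMSO. The share was thus lower with labelled prexasertib in knockout cells and higher with it in parent cells, without overlap in either line. Each difference had an exact two-sided permutation p of 0.1, the smallest that 3 libraries against 3 allow. In a limma test of the log2 ratio of intronic to exonic reads across 14810 genes, added after the values were seen, the change was -0.86 (SE 0.18, limma adjusted p = 0.0354) in knockout cells and 1.38 (SE 0.18, limma adjusted p = 0.00116) in parent cells, where 2.94% and 19.0% of all genes were called. The ratio change differed between the lines by -2.25 (SE 0.26, limma adjusted p = 0.00555), where 5.59% of all genes were called. Between the lines the ratio was lower in knockout cells under labelled prexasertib (-0.997 on this log2 scale, limma adjusted p = 0.0153) and higher under labelled DMSO (1.251, limma adjusted p = 0.00135), where 6.40% and 19.8% of all genes were called. The call in knockout cells over treatment was lost in 7 of the 12 fits that leave out a single library, at -0.97 to -0.74.

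PPP1R15A had a lower intronic share in knockout cells labelled prexasertib, at 7.14, 5.90 and 6.57%, against 10.7, 9.68 and 9.97% in those labelled DMSO. In parent cells the shares were 9.25, 11.6 and 11.05% when labelled prexasertib and 7.51, 7.46 and 7.25% when labelled DMSO. The groups did not overlap in either line and the shares moved in opposite directions. In the limma test of the ratio, the change was -0.68 (SE 0.15, limma adjusted p = 0.0438) in knockout cells, a call lost in 9 of the 12 fits that leave out a single library. In parent cells it was 0.29 (SE 0.15, limma adjusted p = 0.205) and did not pass, unlike that of CDKN1A. Without centring on the library median it was 0.57 there (limma adjusted p = 0.00593), where the median over all genes was itself 0.22, and without replicate 1 of parent cells labelled prexasertib it passed at 0.49 (limma adjusted p = 0.0075). The ratio change differed between the lines by -0.96 (SE 0.21, limma adjusted p = 0.0301), a call lost in 10 of the 12 fits that leave out a single library. Shares of BTG2 moved in the same directions, also without overlap in either line. Their means were 6.33% (labelled prexasertib) and 10.68% (labelled DMSO) in knockout cells, against 11.01 and 6.97% in parent cells. The BTG2 ratio change differed between the lines by -1.25 (SE 0.33, limma adjusted p = 0.0539) and did not pass. Without centring it passed at -1.54 (limma adjusted p = 0.0291), where the median over all genes was itself -0.21. BTG3 was the gene with the highest intronic share, at 50.6 to 56.4% as group means in knockout cells and in parent cells labelled prexasertib and at 45.9% in parent cells labelled DMSO. Under labelled DMSO its ratio was higher in knockout than parent cells by 0.47 (log2, SE 0.09, limma adjusted p = 0.00575). TOB1 differed between the lines in the change of intronic reads (0.84, SE 0.23, edgeR adjusted p = 0.0244) but not, beyond the test, in that of exonic reads, and the intronic call was lost without any of 5 single libraries.

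**Figure D5:**
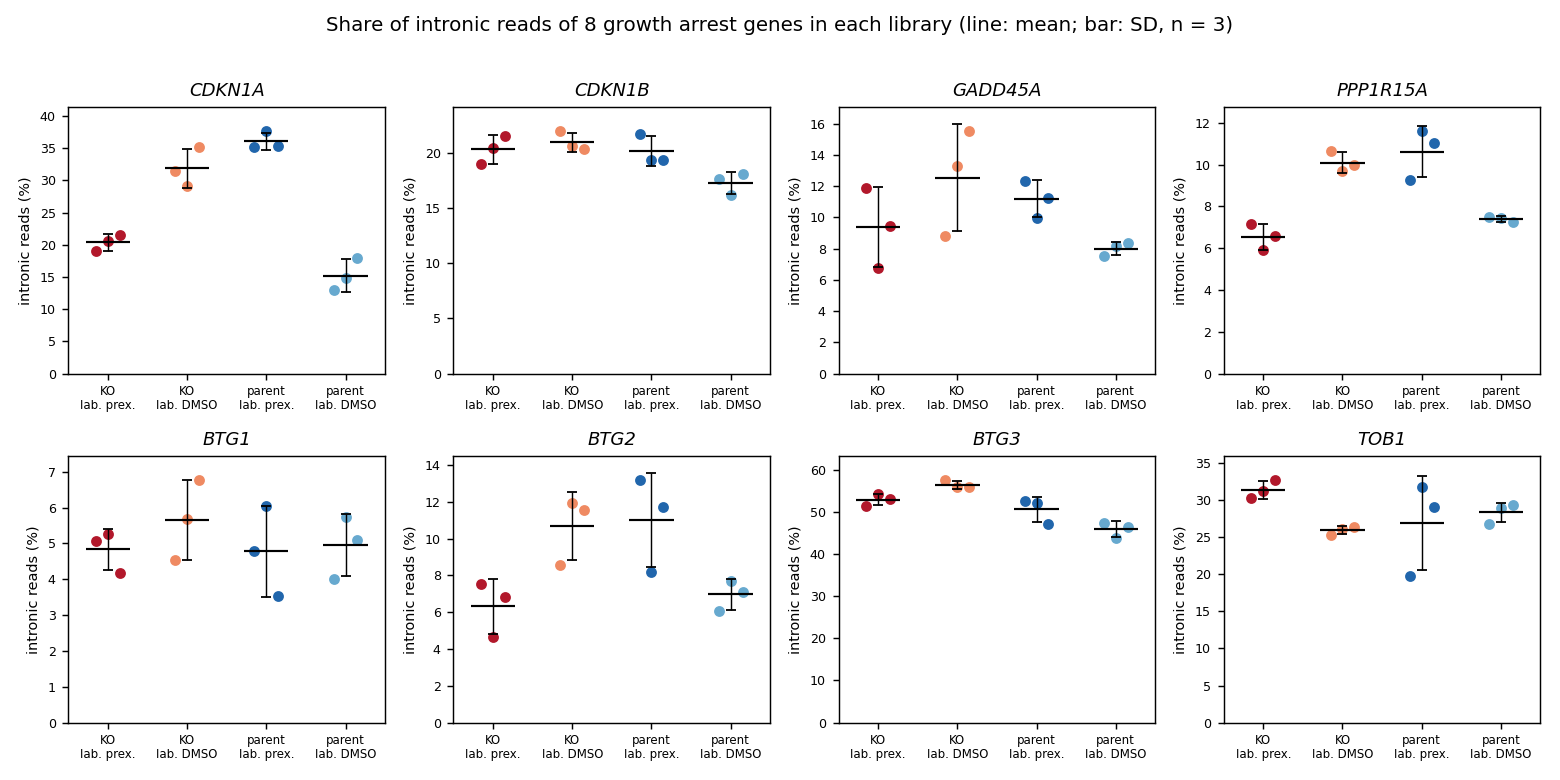
Share of a gene's reads that were intronic, in percent on a linear axis from 0, for 8 genes, with a point per library, a line at the mean and a bar of 1 SD (n = 3), from left to right in knockout cells labelled prexasertib, knockout cells labelled DMSO, parent cells labelled prexasertib and parent cells labelled DMSO. CDKN1A means are 20.4, 31.9, 36.1 and 15.22% in these groups, and PPP1R15A means are 6.54, 10.1, 10.6 and 7.41%. BTG2 means are 6.33, 10.68, 11.01 and 6.97%, so that the middle groups are the highest for each of these genes.

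Over the 12 libraries the members fell into looser and tighter pairs, given as a description since the libraries share the groups and the scaling. The log2 levels of BTG1 and BTG2 had a Pearson correlation of 0.98, BTG2 and CDKN1B 0.97, BTG2 and BTG3 0.96, CDKN1A and GADD45A 0.94 and GADD45B and PPP1R15A 0.92. CDKN1A stood furthest from GADD45B (0.45) and PPP1R15A (0.47). Among 11369 other genes, those most like CDKN1A were KDM5B, CXXC11 and DUSP4 (each 0.98). Those most like BTG2 were DUSP16 (0.996), ATF3 (0.995) and JUNB (0.995). GADD45A was most like ZNF281, CASP10 and BIRC3 (each 0.99), GADD45B like NDST2, TFE3 and PTPN7 (each 0.98), and PPP1R15A like ENC1, ANKRD13D and DHCR7 (each 0.99). TOB1 was most like ERN1 (0.96), ERMAP (0.95) and KBTBD2 (0.95).

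Other genes of these pathways were read from lists, each count from all 12 libraries standing beside those of all genes given above. Counts without replicate 1 of parent cells labelled prexasertib come from another fit, whose share of all genes called is not given here. In the difference between the lines, where 9.53% of all genes were positive and 7.32% negative, 3 of 6 other CDK inhibitor genes were positive and 0 negative (median 0.42, against -0.03 over all genes). CDKN2D, which encodes the CDK4 and CDK6 inhibitor p19, changed by -0.30 (SE 0.07) in knockout cells and -1.09 (SE 0.07) in parent cells. CDKN3, a phosphatase gene whose product acts on CDK2 and which is itself read most in dividing cells, changed by -0.72 (SE 0.05) in knockout cells and -1.32 (SE 0.05) in parent cells. Without replicate 1 of parent cells labelled prexasertib the counts were again 3 and 0. Of 11 tested genes for G1 and S cyclins, their kinases and p27 turnover, 2 were positive and 3 negative (median -0.08). Without that library 1 was positive and 5 negative. CKS1B, listed at 2 loci, was left out. PCNA, the replication clamp bound by p21, rose in parent cells (log2 0.48, SE 0.05) and changed by 0.10 (SE 0.05, not called) in knockout cells. SKP2, the ubiquitin ligase subunit that targets p27, rose by 0.21 (SE 0.05) in knockout cells and 0.51 (SE 0.05) in parent cells.

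The partners of these proteins were read as well. Of 16 tested genes for the CCR4-NOT and PAN deadenylases and TOB2, 1 was positive and 0 negative in the difference between the lines (median 0.05), CNOT4 at 0.37 (SE 0.11), which was 0.04 with all reads of the gene (edgeR adjusted p = 0.92) and lost the call without any of 4 single libraries. CNOT10 was at 0.20 (SE 0.07, edgeR adjusted p = 0.0545) and was called by DESeq2 (0.21, DESeq2 adjusted p = 0.027) and without any of 6 single libraries. Without replicate 1 of parent cells labelled prexasertib 6 of these genes were positive and 1 negative. That count was not set beside the share of all genes called in the same fit, so it cannot be read as particular to these genes. Of 8 kinase genes that act with GADD45 proteins, 0 passed in either direction (median -0.03), with MAP3K4 at 0.15 (SE 0.07) and MAPK14, which encodes p38alpha, at -0.17 (SE 0.07). Only these 2 of the 8 had an unadjusted p under 0.05 in edgeR's test, DESeq2 also called 0, and without replicate 1 of parent cells labelled prexasertib both were called (0.21 for MAP3K4 and -0.16 for MAPK14). Of 10 genes for eIF2alpha, its kinases and phosphatase subunits and the transcription factor ATF4, 2 were positive and 2 negative (median -0.02), with and without that library. PPP1R15B, the constitutive relative of PPP1R15A, changed by -0.12 (SE 0.05, not called) in knockout cells and -0.43 (SE 0.05) in parent cells. EIF2AK3, which encodes the kinase PERK, rose by 0.20 (SE 0.06) in knockout cells and changed by -0.66 (SE 0.06) in parent cells. Of the 3 FOXO factor genes, whose products activate CDKN1B in several cell types, 2 were positive, with and without that library (median 0.81). FOXO3 rose by 0.22 (SE 0.06) in knockout cells and changed by -0.64 (SE 0.06) in parent cells, and FOXO4 changed by -0.46 (SE 0.09) in knockout cells and -0.97 (SE 0.09) in parent cells.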

How the data were processed

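Total RNA was sequenced from SLFN11-knockout and parent cells, with 3 libraries in each of 4 groups. The submitters' processing notes name STAR 2.5.4a, Picard 2.9.2, Trimmomatic 0.39, Trim Galore 0.6.2 and the hg19 build, with no roles. The read counter, its annotation, strand setting and handling of duplicates are not given in the sources used here, so reads of a gene and of an antisense partner cannot be told apart. The authors deposited, for each gene, counts of exonic and of intronic reads and a TPM value computed on exon length, per the file headers. A gene not listed in a file was taken as 0, and 36 Y copies of pseudoautosomal genes were left out. Of exonic counts between 1 and 10, 73.7% were even, so the reads of a pair may each have been counted. Positions are the files' hg19 intervals with 1 added, and promoters are from RefSeq (GRCh38.p14), where 9 of the 10 genes were matched.

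The members and the lists of related genes were chosen with earlier results of these data known. All 10 members are named, then the 2 genes of each list with the smallest p for the difference between the lines and, for CDKN1A, GADD45A, GADD45B, PPP1R15A, BTG2 and TOB1, the 3 genes most like it. Further list genes are given as counts. Results of 1 list, 1 motif and 1 marker are not reported here.

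Exonic counts (23045 genes) and intronic counts (19852 genes) that passed filterByExpr at a minimum count of 10 entered edgeR 4.0.16 under R 4.3.3 (TMM scaling, 1 mean per group over the 12 libraries, robust quasi-likelihood test). A gene was called where its p, adjusted over all genes by Benjamini-Hochberg, did not exceed 0.05. The difference between the lines is the knockout change less the parent change. Ratios of intronic to exonic reads, with 0.5 reads added to each and centred on the library median, were tested with limma 3.58.1. DESeq2 1.42.0 was an alternative, as were other scaling and filters, all reads of a gene, reads outside other genes, TPM, a replicate block, treatment taken from the library names and each library left out. On exonic reads simulated for parent cells, labelled prexasertib against labelled DMSO, edgeR recovered 12% of 50 genes changed 1.25-fold. It recovered 74% of 50 changed 1.5-fold and 100% of 50 changed 2-fold, with 7 false calls among 23045 genes. The limma test of the ratio recovered 53% of 200 genes changed 2-fold. The simulation changed only well-read genes, gave every gene the same spread and held no library that stood apart. Recovery in the real libraries may therefore differ. Depth was 47887791 to 77548202 exonic reads per library, but depth alone does not set the precision. Libraries of a group differed by more than counting error, at a chi-square per degree of freedom of 4.52 to 37.5 between pairs.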

Additional observations from a re-analysis of the deposited data

Results flagged for a closer look

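The change with labelled prexasertib differed between the lines, by the test of that difference itself, for 7 genes in exonic reads. On the log2 scale, knockout change less parent change, it was 2.85 for CDKN1A, 2.15 for BTG2, 1.17 for BTG3, 0.79 for CDKN1B, 0.74 for BTG1, 0.59 for GADD45A and -0.31 for PPP1R15A. In intronic reads it was 0.91 for BTG3, 0.84 for TOB1, 0.68 for CDKN1B and -1.37 for PPP1R15A. In the log2 ratio of intronic to exonic reads it was -2.25 for CDKN1A and -0.96 for PPP1R15A. With treatment taken from the library names each of these values has the opposite sign. Some of these calls were lost in the 12 fits that leave out a single library. The losses numbered 10 for the PPP1R15A ratio, 7 for PPP1R15A in exonic reads and 5 for TOB1 in intronic reads.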

How the results depend on the processing

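For single genes, 852 exonic values kept their direction and side of the threshold under the alternatives, 14 that were called in neither fit changed sign, 14 gained a call and 11 lost one. For intronic reads the numbers were 543, 11, 6 and 40, and for the ratio of intronic to exonic reads 455, 16, 11 and 38. The changes of sign include TOB1 in knockout against parent cells under labelled prexasertib, which was -0.02 and became 0.09 without replicate 1 of parent cells labelled prexasertib. No called value reversed apart from treatment taken from the library names. With that reading 3 genes were higher and 0 lower in knockout cells, 9 higher and 0 lower in parent cells, 0 higher and 8 lower in knockout against parent cells under prexasertib, 1 higher and 2 lower under DMSO, and the difference between the lines was positive for 1 and negative for 6. Under labelled prexasertib, genes higher in knockout than parent cells (1 by exonic reads) numbered 2 with all reads of a gene and 4 with TPM, and by intronic reads (2) they numbered 1 with the library sizes of the exonic reads and 4 with a replicate block. Genes with a negative difference between the lines (1) numbered 0 with all reads of a gene. Genes with fewer intronic reads in knockout cells under labelled DMSO (6) numbered 3 with the library sizes of the exonic reads. Leaving out 1 library at a time gave 0 to 1 genes higher in knockout cells with treatment, 1 to 2 higher in knockout than parent cells under labelled prexasertib (0 to 3 by intronic reads), 3 to 6 lower by intronic reads under labelled DMSO, and 0 to 1 with a negative difference between the lines. The cause of these shifts was not tested. Over all genes, calls in knockout cells numbered 2402 higher and 2476 lower when only the 2 groups compared were fitted, against 1407 and 1575. With TPM, 8787 genes were higher and 1702 lower in knockout than parent cells under labelled DMSO, against 4515 and 4697.

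Replicate numbers did not pair the libraries: of 18 correlations of same-numbered deviations (-0.272 to 0.160) 4 exceeded 0.1, and 4 of 12 libraries correlated best with their own number. With the replicate block, 9 of 9 genes still fell in parent cells.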
